A study of Mus musculus with 9 samples.

Results

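NRF2 antioxidant genes are described here as 10 genes chosen by name: *Nfe2l2*, which encodes NRF2, its inhibitor *Keap1*, and the effector genes *Hmox1*, *Nqo1*, *Gclc*, *Gclm*, *Slc7a11*, *Txnrd1*, *Srxn1* and *Gpx4*. They are 10 of the 55471 gene IDs counted, each was matched by its identifier, and the rule names the genes without using a measured value. All 10 passed the filter on low counts in every comparison.

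Embryoid bodies (EBs), the aggregates in which embryonic stem (ES) cells begin to differentiate, were sequenced as 9 RNA libraries in 3 groups of 3. WT EBs came from the parental E14 mouse ES line. KO EBs were *Tnfaip2*-/- and came from 1 CRISPR-Cas9 clone of that line with a premature stop codon in the second exon of *Tnfaip2*, so differences between KO and WT also hold whatever is particular to that clone. KO_PAPC EBs were of the same genotype and received palmitic acid, a saturated fatty acid, and palmitoyl-L-carnitine, its carnitine ester (PA/PC), at 8 μM each. All EBs grew in hanging drops for 3 days and on gelatin for another 3 days of *in vitro* differentiation before harvest, and WT EBs with PA/PC were not analysed here. In the study's methods the PA/PC EBs were formed in MEF medium with PA/PC, and EB formation is otherwise described in ES cell medium. The labels list Leukemia Inhibitory Factor and β-mercaptoethanol in the ES cell medium only. PA/PC and this difference in medium cannot be told apart.

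NRF2 is a transcription factor that KEAP1 binds and hands to a ubiquitin ligase under resting conditions. Oxidants and electrophiles modify cysteines of KEAP1, whereupon NRF2 escapes degradation and, with a small MAF protein, binds antioxidant response elements (AREs) of genes for glutathione synthesis, thiol reduction, quinone reduction and heme breakdown. Much of this control acts on the NRF2 protein, which RNA counts do not measure. The comparisons ask how the transcripts of this pathway differ between EBs with and without *Tnfaip2*, and in KO EBs given PA/PC.

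Promoter windows from RefSeq (build GRCm38.p6, 250 bases before to 50 bases after an annotated start) were held for 8 of the 10 genes, all but *Hmox1* and *Gclc*. The windows of 3 genes are shown because these genes carry the clearest contrasts in the data: *Srxn1* and *Slc7a11* had the widest spans between groups, and *Gclm* one of the narrowest. Each is written 5′ to 3′ along its gene's strand, in lower case, with motif matches in capitals. The motifs searched on both strands were an ARE core (TGACNNNGC or TGAGNNNGC), an AP-1 element (TGACTCA or TGAGTCA, which can lie inside an ARE core) and an ATF4 element (TGATGNAA).
Srxn1, chr2:152105274-152105573, plus strand: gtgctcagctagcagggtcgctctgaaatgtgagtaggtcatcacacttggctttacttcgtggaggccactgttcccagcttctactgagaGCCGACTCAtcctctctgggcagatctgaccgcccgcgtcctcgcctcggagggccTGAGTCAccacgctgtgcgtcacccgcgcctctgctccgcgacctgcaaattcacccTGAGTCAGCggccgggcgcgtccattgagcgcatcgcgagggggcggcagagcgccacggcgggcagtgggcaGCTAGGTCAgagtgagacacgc
Slc7a11, chr3:50443564-50443863, minus strand: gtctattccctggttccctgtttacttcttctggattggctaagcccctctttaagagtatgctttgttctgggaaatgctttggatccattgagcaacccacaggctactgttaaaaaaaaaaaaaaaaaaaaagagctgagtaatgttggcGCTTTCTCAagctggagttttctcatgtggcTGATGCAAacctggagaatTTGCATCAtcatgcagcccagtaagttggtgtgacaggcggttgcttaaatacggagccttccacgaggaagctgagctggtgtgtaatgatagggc
Gclm, chr3:122245307-122245606, plus strand: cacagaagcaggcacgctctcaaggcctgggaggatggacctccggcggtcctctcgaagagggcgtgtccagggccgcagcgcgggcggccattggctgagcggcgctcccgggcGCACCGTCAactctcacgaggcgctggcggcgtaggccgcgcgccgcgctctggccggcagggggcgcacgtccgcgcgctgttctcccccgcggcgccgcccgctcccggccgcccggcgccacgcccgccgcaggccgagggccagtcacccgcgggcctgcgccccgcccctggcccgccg

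The *Srxn1* window held ARE core matches at -158 to -150, at -45 to -37 and at 29 to 37, counted with the annotated start as 1 and without a position 0. Its AP-1 matches lay at -102 to -96 and at -45 to -39, the latter inside an ARE core match. The *Slc7a11* window held an ARE core match at -97 to -89 and the ATF4 word TGATGCAA once on each strand, at -66 to -59 and at -47 to -40. The *Gclm* window held 1 ARE core match, at -134 to -126, and *Nfe2l2* itself held 1 at -240 to -232 (chr2:75704614-75704913, minus strand). In all, 5 of the 13 windows had an ARE core match, 1 window in each of 5 genes, the fifth gene being *Txnrd1* with 1 of its 3 windows. *Nqo1*, *Keap1* and *Gpx4* had no motif match in any window. Of 32851 RefSeq promoter windows of this length, 27.8% held the ARE core, 5.20% the AP-1 element and 3.97% the ATF4 element. A match describes letters in the window and shows no binding. Sequence outside the windows was not searched, so a window without a match does not show that the gene lacks the element.

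**Figure D1:**
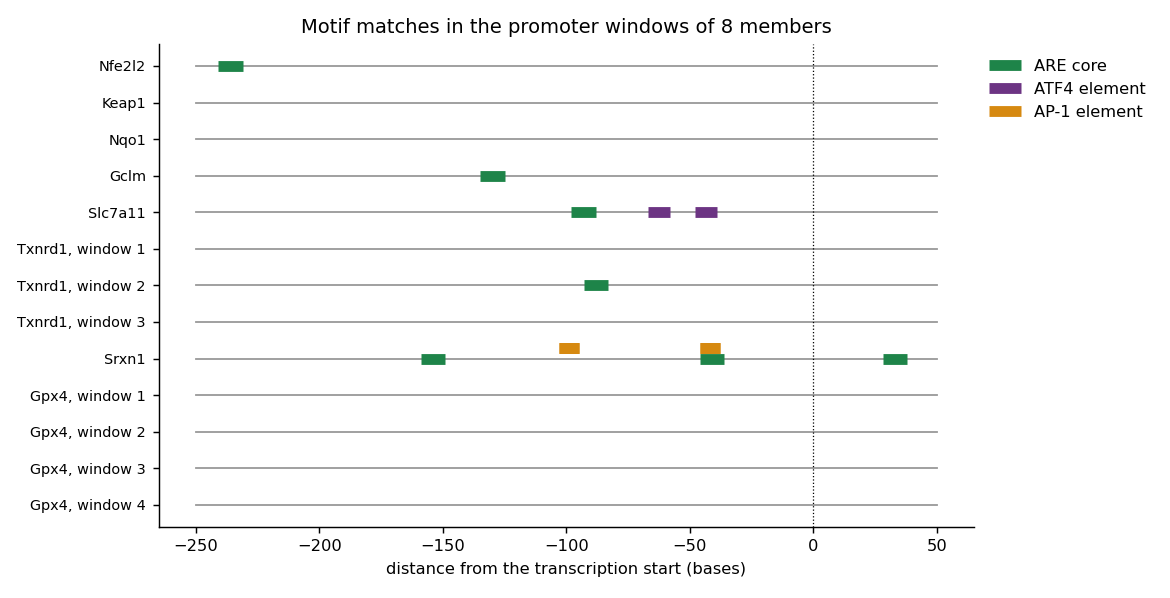
Positions of motif matches (coloured blocks) in the 13 promoter windows of 8 NRF2 antioxidant genes, drawn along the distance from the annotated transcription start in bases. Matches lie in 5 windows, and 8 windows show a bare line.

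Depth was even, at 27362913 to 28914312 counts per library. *Tnfaip2* itself was near the floor, with 16, 6 and 10 counts in the WT libraries, 5, 6 and 8 in the KO libraries and 25, 14 and 16 in the KO_PAPC libraries. It was above KO in the libraries labelled KO_PAPC (log2 fold change 1.72 ± 0.363, SE, edgeR adjusted p = 5.49e-05). A premature stop codon need not lower a transcript, so these counts give no check of the labels, and each direction is that of the libraries so labelled. Values are given as CPM, read counts scaled to a common library size by TMM, a method that balances most genes between libraries, with the SD over 3 libraries. Scaling by library totals instead shifted the median of all tested genes from -0.017 to -0.18 on the log2 scale in both comparisons of KO_PAPC, where it cut the share of called genes that were higher from 48.4% to 38% (against KO) and 30.2% (against WT), and it is named wherever it alters a call. All 10 pluripotent markers were over 1 CPM in every group, and their summed level was 2490 to 2546 CPM in WT EBs, 4225 to 4255 in KO and 2468 to 2525 in KO_PAPC libraries. The like sums of WT and KO_PAPC hide changes of single genes. Between these groups 3 markers were called higher in KO_PAPC and 7 lower, against 34.2% and 36.4% of all tested genes. *Pou5f1* was at 657, 669 and 912 CPM in WT, KO and KO_PAPC EBs, and *Tfcp2l1* at 99.3, 233 and 37.0 CPM. The sum of 11 primitive and visceral endoderm markers was 1796 to 1950, 1270 to 1352 and 804 to 875 CPM in the same order. Most of it was *Apoe*, at 1024, 848 and 752 CPM, so the sum mainly follows that gene. Of the 11, 10 were lower beyond 1.5-fold in KO_PAPC versus WT EBs (13.4% of all tested genes), with a median log2 fold change of -3.34. In KO versus WT EBs 9 were called lower and 2, *Afp* and *Ttr*, higher, against 37.1% and 36.8% of all tested genes. The sum of 6 neuroectoderm markers was 400 to 405, 298 to 301 and 612 to 621 CPM. The sum of 5 trophoblast markers, most of it *Tfap2c*, was 55.2 to 56.2, 286 to 293 and 32.2 to 35.0 CPM. Markers of mesoderm (at most 77.0 CPM in sum) and fibroblasts (at most 29.1 CPM) were low in all groups, but single genes changed widely. *T* was at 1.83, 0.281 and 16.7 CPM in WT, KO and KO_PAPC EBs, and the fibroblast marker *Acta2* at 1.47, 0.440 and 15.3 CPM. *Pdgfra*, at 34.0, 12.8 and 2.53 CPM, and *Hand1*, at 0.746, 4.36 and 0.235 CPM, fell from KO to KO_PAPC. In that comparison 4 of 7 tested mesoderm markers were called higher and 3 lower, and of 5 fibroblast markers 3 and 1. Of all tested genes 39.6% were higher and 42.2% lower there. Mitochondrial transcripts took 1.85% to 1.87% of counts in WT, 1.96% to 1.98% in KO and 1.26% to 1.34% in KO_PAPC libraries. In such bulk samples, fewer cells of a type and less RNA per cell cannot be told apart. The part of these differences in the results on NRF2 genes was not tested.

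Differences were called at an edgeR adjusted p under 0.05 across all genes. In KO versus WT EBs, 3 of the 10 genes were higher (*Txnrd1*, *Srxn1*, *Gpx4*), 6 were lower (*Nfe2l2*, *Keap1*, *Hmox1*, *Nqo1*, *Gclc*, *Slc7a11*) and *Gclm* was not called. The background was high, since 73.8% of 17355 tested genes were called, 36.8% higher and 37.1% lower. From KO to KO_PAPC EBs, 5 genes were higher (*Nfe2l2*, *Hmox1*, *Gclc*, *Gclm*, *Txnrd1*), 3 were lower (*Nqo1*, *Srxn1*, *Gpx4*) and 2 were not called, against 81.8% of 17167 genes called, 39.6% higher and 42.2% lower. On library totals this split became 3 higher and 4 lower for the 10 genes. From WT to KO_PAPC EBs, 4 genes were higher and 4 lower (2 higher and 6 lower on library totals), against 70.6% of 16655 genes called, 34.2% higher and 36.4% lower. With shares of this size in the background, the number of NRF2 genes called is no result about them, and the sizes of their changes are given gene by gene.

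A second call asked whether a change exceeded 1.5-fold (edgeR's glmTreat, adjusted p under 0.05). In KO versus WT EBs, *Srxn1* and *Gpx4* passed as higher and *Hmox1* and *Slc7a11* as lower, against 21% of all tested genes, 10.8% higher and 10.1% lower. Between KO_PAPC and KO EBs, *Hmox1* passed as higher and *Nqo1* and *Srxn1* as lower, against 37.8%, 15.5% higher and 22.3% lower. In KO_PAPC versus WT EBs none passed as higher and *Nqo1*, *Slc7a11* and *Srxn1* passed as lower, against 17.7%, 4.31% higher and 13.4% lower. The median log2 fold change of the 10 genes was -0.20, 0.18 and 0.018 in the 3 comparisons, beside -0.0059, -0.017 and -0.017 for all tested genes. The comparisons share libraries (KO and WT enter 2 comparisons each, as does KO_PAPC), so each is given by its own values.

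**Figure D2:**
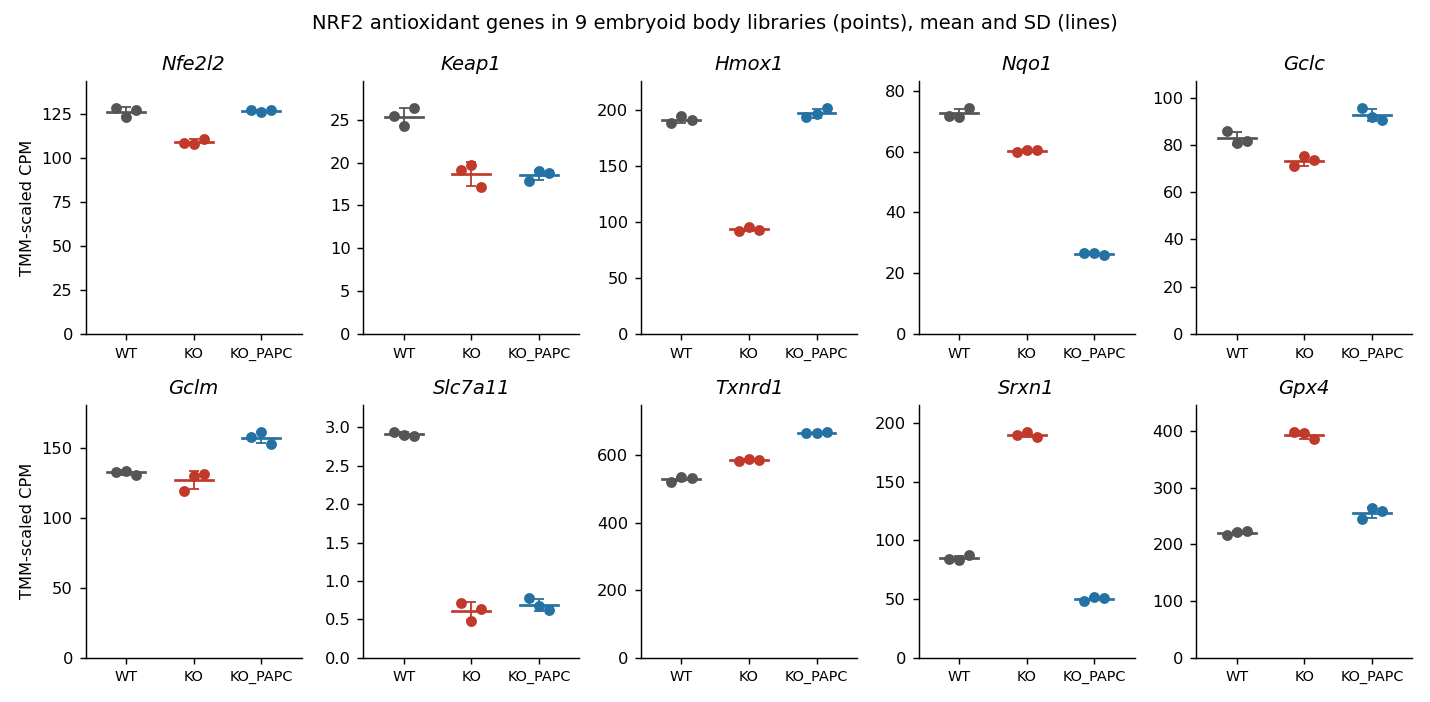
Level of each NRF2 antioxidant gene in 9 EB libraries, as TMM-scaled CPM on linear axes from 0. Points are libraries, the long line is the mean and the bar the SD of 3 libraries; *Hmox1* is low in KO, *Srxn1* and *Gpx4* are high in KO, *Nqo1* is low in KO_PAPC, and *Slc7a11* is low in both KO groups.

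*Nfe2l2* (ENSMUSG00000015839, chromosome 2, 75675513 to 75704641, minus strand) encodes NRF2. Its level was 128, 124 and 127 CPM in the WT libraries, 109, 108 and 111 CPM in the KO libraries and 128, 126 and 127 CPM in the KO_PAPC libraries. All KO libraries lay below all others, and the WT and KO_PAPC ranges overlapped. The log2 fold change from WT to KO was -0.21 ± 0.0285 (SE, edgeR adjusted p = 4.21e-08) and that from KO to KO_PAPC 0.22 ± 0.0301 (edgeR adjusted p = 4.69e-08), the latter 0.049 and not called on library totals (edgeR adjusted p = 0.133). KO_PAPC and WT EBs differed by a log2 of -0.00032 ± 0.0317 (edgeR adjusted p = 0.994), or by -0.17 on library totals, where the difference was called (edgeR adjusted p = 4.9e-05). The genes whose log2 CPM over the 9 libraries was most like that of *Nfe2l2* were *Pomk* (r = 0.995), *Gm18363* (r = 0.994) and *Bag5* (r = 0.994), each lowest in KO. These are 3 of 1306 genes with r above 0.9 among 9772 compared, and with 3 levels shared by 9 libraries such values are a description. On library totals the nearest genes were others, namely *Pggt1b*, *Pnisr* and *Cebpg*.

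*Keap1* (ENSMUSG00000003308, chromosome 9, 21229730 to 21239361, minus strand) encodes the adaptor that targets NRF2 for degradation. It stood at 25.4, 24.3 and 26.4 CPM in the WT libraries, 19.2, 19.7 and 17.1 CPM in the KO libraries and 17.9, 19.0 and 18.8 CPM in the KO_PAPC libraries. WT lay apart from both KO groups, which overlapped. From WT its log2 fold change was -0.44 ± 0.0557 to KO (SE, edgeR adjusted p = 1.13e-08) and -0.46 ± 0.0557 to KO_PAPC (edgeR adjusted p = 7.73e-08). Between KO_PAPC and KO it was -0.011 ± 0.0611 (edgeR adjusted p = 0.872), and -0.18 with a call on library totals (edgeR adjusted p = 0.00816). The antisense gene *Gm16754* overlaps 10.9% of the exon length of *Keap1*, and these unstranded reads cannot separate them.

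*Hmox1* (ENSMUSG00000005413, chromosome 8, 75093621 to 75100589, plus strand) encodes heme oxygenase 1, which opens heme into biliverdin, iron and carbon monoxide. The WT libraries held 189, 194 and 191 CPM, the KO libraries 92.2, 95.4 and 92.7 CPM and the KO_PAPC libraries 193, 196 and 202 CPM. Every KO library was thus far below every other, while WT and KO_PAPC overlapped. From WT to KO the log2 fold change was -1.03 ± 0.0274 (SE, fold 0.488, edgeR adjusted p = 1.58e-26) and from KO to KO_PAPC it was 1.07 ± 0.0298 (fold 2.10, edgeR adjusted p = 7.06e-28). KO_PAPC and WT EBs differed by 0.037 ± 0.0292 (edgeR adjusted p = 0.267), a sign that turned on library totals to a called -0.13 (edgeR adjusted p = 0.000353). *Hmox1* is also abundant in macrophages and in cells that handle heme. Of 9 erythroid and macrophage markers only *Cd68* was over 1 CPM, *Hbb-bt* and *Hbb-bh1* were at 0 in all groups, and the summed level was 12.5 to 14.8 CPM in WT libraries, 16.2 to 17.2 in KO libraries and 7.86 to 8.26 in KO_PAPC libraries.

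*Nqo1* (ENSMUSG00000003849, chromosome 8, 107388225 to 107403206, minus strand) encodes a quinone reductase and is a widely used readout of NRF2. It measured 71.8, 71.5 and 74.3 CPM in the WT libraries, 59.8, 60.6 and 60.5 CPM in the KO libraries and 26.6, 26.7 and 26.0 CPM in the KO_PAPC libraries. The 3 groups did not overlap, and KO_PAPC was the lowest. The decline was small from WT to KO (log2 fold change -0.27 ± 0.0333, SE, edgeR adjusted p = 9.35e-09) and larger from KO to KO_PAPC (-1.19 ± 0.0424, fold 0.438, edgeR adjusted p = 1.67e-24). Against WT, KO_PAPC lay at -1.46 ± 0.0419 (fold 0.363, edgeR adjusted p = 6.72e-20). *Nqo1* and *Hmox1*, both known NRF2 targets, therefore moved in opposite directions between KO and KO_PAPC EBs.

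*Gclc* (ENSMUSG00000032350, chromosome 9, 77754535 to 77794485, plus strand) and *Gclm* (ENSMUSG00000028124, chromosome 3, 122245557 to 122270732, plus strand) encode the catalytic and modifier subunits of glutamate-cysteine ligase, the rate-limiting enzyme of glutathione synthesis. *Gclc* was at 86.1, 80.7 and 81.5 CPM in the WT libraries, 70.9, 75.3 and 73.5 CPM in the KO libraries and 95.6, 91.8 and 90.6 CPM in the KO_PAPC libraries, with no overlap between groups. *Gclm* was at 133, 134 and 131 CPM in the WT libraries, 119, 130 and 132 CPM in the KO libraries and 158, 161 and 153 CPM in the KO_PAPC libraries, so KO overlapped WT and KO_PAPC lay above both. In KO versus WT EBs the log2 fold change was -0.18 ± 0.0337 for *Gclc* (SE, edgeR adjusted p = 1.6e-05) and -0.061 ± 0.0309 for *Gclm* (edgeR adjusted p = 0.0727). In KO_PAPC versus KO EBs both subunits rose by a like amount, 0.34 ± 0.0347 for *Gclc* (edgeR adjusted p = 5.02e-11) and 0.31 ± 0.0331 for *Gclm* (edgeR adjusted p = 1.62e-10). Against WT the values were 0.15 ± 0.0372 for *Gclc* (edgeR adjusted p = 0.000681, and -0.010 without a call on library totals) and 0.24 ± 0.0316 for *Gclm* (edgeR adjusted p = 2.43e-07). All these changes were below 1.5-fold.

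*Slc7a11* (ENSMUSG00000027737, chromosome 3, 49892526 to 50443614, minus strand) encodes xCT, the transporter that brings in cystine for glutathione in exchange for glutamate. It was scarce, with 87, 84 and 83 counts in the WT libraries, 21, 14 and 19 in the KO libraries and 20, 17 and 16 in the KO_PAPC libraries. These correspond to 2.94, 2.91 and 2.88 CPM, to 0.708, 0.481 and 0.632 CPM, and to 0.777, 0.672 and 0.624 CPM. All WT libraries were higher than all libraries of the KO genotype, whose groups overlapped. Relative to WT, the log2 fold change was -2.25 ± 0.186 in KO (SE, fold 0.210, edgeR adjusted p = 6.74e-13) and -2.08 ± 0.183 in KO_PAPC (fold 0.237, edgeR adjusted p = 2.6e-10), the widest change of the 10 genes in both comparisons. Between KO_PAPC and KO it was 0.18 ± 0.279 (edgeR adjusted p = 0.554), where so few counts could not show a small difference.

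*Txnrd1* (ENSMUSG00000020250, chromosome 10, 82833951 to 82897712, plus strand) encodes the cytosolic thioredoxin reductase, a selenoprotein. Its level was 522, 535 and 532 CPM in the WT libraries, 584, 589 and 586 CPM in the KO libraries and 665, 667 and 670 CPM in the KO_PAPC libraries. The groups formed 3 separate steps. Each was small: 0.14 ± 0.0205 from WT to KO (log2, SE, edgeR adjusted p = 1.41e-07), 0.18 ± 0.0229 from KO to KO_PAPC (edgeR adjusted p = 3.93e-09) and 0.33 ± 0.0247 from WT to KO_PAPC (edgeR adjusted p = 1.45e-11). On library totals the step from KO to KO_PAPC was 0.018 and not called (edgeR adjusted p = 0.473).

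*Srxn1* (ENSMUSG00000032802, chromosome 2, 152105516 to 152111376, plus strand) encodes sulfiredoxin, which repairs hyperoxidised peroxiredoxins. It was at 83.8, 82.8 and 87.2 CPM in the WT libraries, 190, 192 and 188 CPM in the KO libraries and 48.6, 51.7 and 50.5 CPM in the KO_PAPC libraries. No groups overlapped, with KO the highest and KO_PAPC below WT. The log2 fold change from WT to KO was 1.16 ± 0.0284 (SE, fold 2.24, edgeR adjusted p = 1.32e-27), that from KO to KO_PAPC -1.92 ± 0.033 (fold 0.264, edgeR adjusted p = 2.03e-34) and that from WT to KO_PAPC -0.76 ± 0.0385 (fold 0.591, edgeR adjusted p = 6.11e-15). The directions in KO and with PA/PC were the reverse of those of *Hmox1*, although both are textbook NRF2 targets. Of the marker sums, those of pluripotent cells, of trophoblast and of erythroid and macrophage cells were likewise highest in KO. The last 2 rest on few genes, chiefly *Tfap2c* and *Cd68*. Of 10 pluripotent markers 9, and of 4 tested trophoblast markers 2, were called higher in KO versus WT EBs, against 36.8% of all tested genes. The others were not called. From KO to KO_PAPC EBs 9 pluripotent markers were lower, against 42.2% of all tested genes. The other, *Pou5f1*, was higher, at 912 CPM against 669 in KO. As shown above, the *Srxn1* window was the only one of the 13 with AP-1 matches. No window was held for *Hmox1*, so it cannot be compared with *Srxn1* in this.

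*Gpx4* (ENSMUSG00000075706, chromosome 10, 80047166 to 80056439, plus strand) encodes the selenoprotein that reduces lipid hydroperoxides in membranes and holds back ferroptosis. It reached 217, 221 and 224 CPM in the WT libraries, 399, 397 and 386 CPM in the KO libraries and 245, 264 and 259 CPM in the KO_PAPC libraries. KO was the highest, and KO_PAPC stayed slightly above WT without overlap. Going from WT to KO its log2 fold change was 0.83 ± 0.0235 (SE, fold 1.78, edgeR adjusted p = 9.71e-26) and going from KO to KO_PAPC it was -0.63 ± 0.0275 (fold 0.648, edgeR adjusted p = 1.16e-21). The latter did not pass the 1.5-fold test (edgeR adjusted p = 0.0566). KO_PAPC differed from WT by 0.21 ± 0.0305 (edgeR adjusted p = 1.72e-06), and by 0.041 without a call on library totals (edgeR adjusted p = 0.236). A share of 34.5% of the 51-base words of *Gpx4* also occurs in other genes, foremost the pseudogene *Gpx4-ps2*, so reads may have been lost or split there. *Gpx4* shared its high level in KO with *Srxn1* and with the summed pluripotent markers given above.

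**Figure D3:**
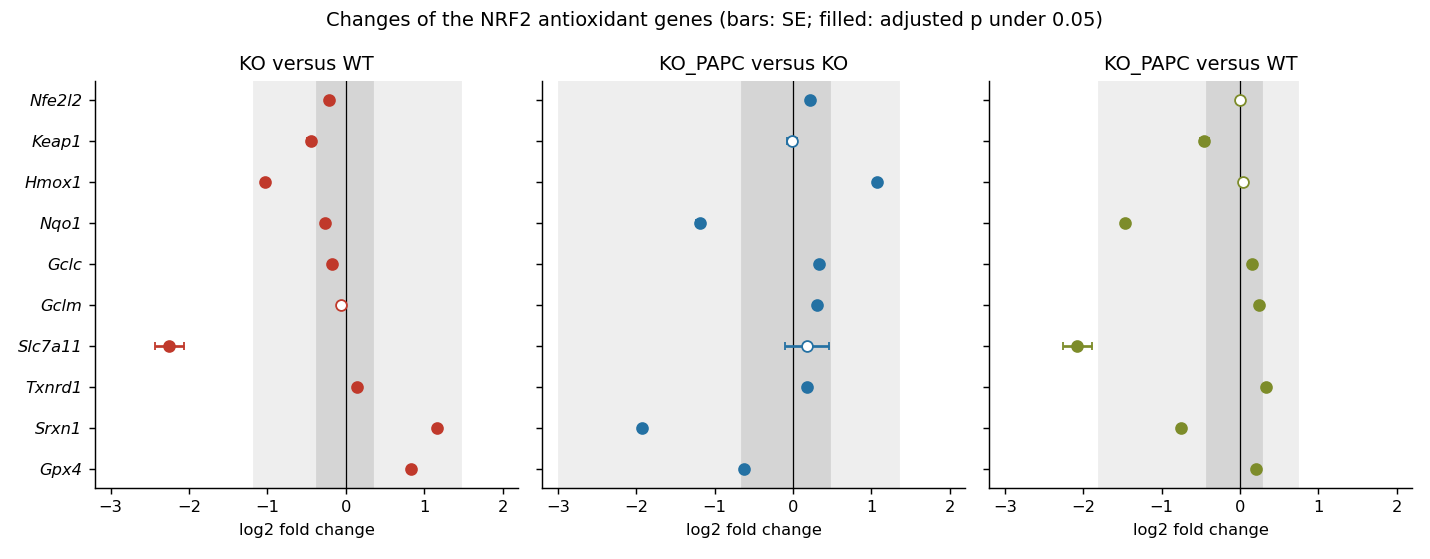
Log2 fold change of each NRF2 antioxidant gene in the 3 comparisons, with SE bars and filled points at an edgeR adjusted p under 0.05. Dark and light grey bands span the middle 50% and 90% of all tested genes; *Slc7a11* lies outside the light band in both comparisons with WT, and all other points lie within it.

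Across the 3 groups, 5 of the 10 genes had a highest group mean more than 1.5 times the lowest. The span was 4.80-fold for *Slc7a11*, 3.78 for *Srxn1*, 2.74 for *Nqo1*, 2.11 for *Hmox1* and 1.79 for *Gpx4*, and 1.16 to 1.37 for the others. Replicates were close, with a coefficient of variation of at most 7.33% in any group for all but *Slc7a11*, where it reached 19.0%. All 3 group ranges were apart for 5 genes, namely *Nqo1*, *Gclc*, *Txnrd1*, *Srxn1* and *Gpx4*. Groups did not overlap for 9 of the genes in KO versus WT (75.3% of all tested genes), for 8 in KO_PAPC versus KO (82.2%) and for 8 in KO_PAPC versus WT (72.6%).

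Levels can be compared between genes only per exon length. On CPM per kilobase, *Gpx4* was the most abundant of the 10 in each group, at 128 ± 1.98 (SD, n = 3) in WT EBs, 228 ± 4.14 in KO EBs and 148 ± 5.76 in KO_PAPC EBs. *Slc7a11* was the least abundant in each, at 0.209 ± 0.00214, 0.0436 ± 0.00829 and 0.0496 ± 0.00564 CPM per kilobase, and *Keap1* was ninth. The order between them changed with the group. *Hmox1* was the second in WT, at 109 ± 1.6 CPM per kilobase, and the fourth in KO, at 53.4 ± 1, where *Txnrd1* and *Srxn1* stood above it. *Srxn1* moved from rank 6 in WT to rank 3 in KO and rank 7 in KO_PAPC EBs, where it lay at 17.8 ± 0.551 CPM per kilobase. *Gclc* and *Gclm* were neighbours in every group, and their ranges overlapped in KO and KO_PAPC but not in WT.

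Among 14 other regulators and partners of NRF2, 5 were higher and 6 lower in KO versus WT EBs, with a median log2 fold change of -0.0088. The counts of this and the following lists stand beside the shares of all tested genes called. These were 36.8% higher and 37.1% lower in KO versus WT EBs, 39.6% and 42.2% in KO_PAPC versus KO, and 34.2% and 36.4% in KO_PAPC versus WT. With such shares the counts are a description, and some genes are counted in several lists. The named genes were chosen by the size of their change. *Nfe2l3*, a relative of NRF2, was at 3.23 ± 0.407 (SD, n = 3) CPM in WT EBs, 11.7 ± 0.877 CPM in KO and 2.30 ± 0.491 CPM in KO_PAPC EBs (KO versus WT log2 fold change 1.85, edgeR adjusted p = 3.23e-18). *Maff*, a small MAF partner, ran the other way at 18.5 ± 1.05, 9.95 ± 0.666 and 34.7 ± 0.355 CPM, falling by 0.89 on the log2 scale in KO (edgeR adjusted p = 3.98e-14) and rising by 1.80 with PA/PC (edgeR adjusted p = 1.15e-25). *Bach2*, a repressor at MAF sites, was also lowest in KO, at 4.06 ± 0.313 CPM against 7.45 ± 0.691 in WT (edgeR adjusted p = 1.1e-09). *Sqstm1*, whose product p62 sequesters KEAP1 and which is itself an NRF2 target, was 386 ± 8.49 CPM in WT EBs, 572 ± 7.38 CPM in KO and 258 ± 6.25 CPM in KO_PAPC EBs, so it had the same order as *Srxn1*. A gene on the other strand overlaps 17.3% of its exons. *Nfe2l1* was 417 ± 6.47 CPM in WT and 412 ± 2.85 in KO EBs (edgeR adjusted p = 0.445) and 218 ± 5.20 in KO_PAPC EBs. With PA/PC, 7 of the 14 were above KO EBs and 5 below (7 and 7 on library totals), while 7 were above WT EBs and 4 below (5 and 7 on library totals).

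Of 25 further NRF2 target genes, 14 were higher and 6 lower in KO versus WT EBs (median log2 fold change 0.16). The largest rise was that of *Aldh3a1*, an aldehyde dehydrogenase, from 0.836 ± 0.110 CPM in WT to 12.8 ± 0.398 CPM in KO EBs (SD, n = 3; log2 fold change 3.92 ± 0.119, SE, edgeR adjusted p = 8.07e-25), with 0.273 ± 0.102 CPM in KO_PAPC EBs. *Htatip2* was at 4.33 ± 0.274, 8.95 ± 0.377 and 1.86 ± 0.381 CPM in WT, KO and KO_PAPC EBs, and *Ephx1*, an epoxide hydrolase, at 11.4 ± 0.360, 17.9 ± 0.830 and 3.75 ± 0.249 CPM. *Gstp1*, a glutathione transferase, was at 79.3 ± 1.44, 151 ± 2.56 and 59.2 ± 0.801 CPM in the same order, although 33.5% of its words are shared with *Gstp2* and *Gstp-ps*. These 4 genes had the order of *Srxn1*, KO above WT above KO_PAPC. From KO to KO_PAPC EBs, 9 of the 25 were higher and 14 lower (8 and 16 on library totals), with a median log2 fold change of -0.23. Against WT EBs, 12 were higher and 13 lower (11 and 13 on library totals). *Procr*, a receptor for protein C, was lowest with PA/PC, at 2.63 ± 0.257 CPM against 8.76 ± 0.791 in WT, while *Ftl1*, ferritin light chain, was highest, at 57.2 ± 1.92 CPM against 17.2 ± 0.0271 in WT and 17.3 ± 0.351 in KO EBs. The *Ftl1* value is uncertain, since 58.15% of its words occur in other genes.

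Around *Gclc*, *Gclm* and *Slc7a11*, the list of 20 glutathione enzymes also holds *Slc3a2*, a transporter subunit. It shares *Slc3a2* and *Chac1* with the ATF4 list below. The list had 6 members higher and 11 lower in KO versus WT EBs (median log2 fold change -0.18). *Gss*, which completes glutathione synthesis, was the widest rise there, from 33.7 ± 1.87 CPM in WT to 74.9 ± 2.76 CPM in KO EBs (SD, n = 3; edgeR adjusted p = 5.9e-23), and stood at 27.5 ± 0.892 CPM in KO_PAPC EBs. Genes on the other strand overlap 15.4% of its exons. *Chac1*, which degrades glutathione, fell in both steps, from 49.7 ± 2.07 CPM in WT EBs to 17.6 ± 1 CPM in KO and 4.39 ± 0.109 CPM in KO_PAPC EBs. *Gpx8* was lowest in KO, at 2.83 ± 0.284 CPM against 7.37 ± 0.453 in WT and 7.22 ± 0.523 in KO_PAPC EBs. *Glrx*, glutaredoxin, was at 12 ± 0.585, 18.4 ± 0.332 and 5.93 ± 0.131 CPM in WT, KO and KO_PAPC EBs. *Gpx3* and *Oplah* were lowest in KO_PAPC EBs, at 32.6 ± 1.67 and 6.43 ± 1.24 CPM against 83.0 ± 2.31 and 17.9 ± 1.19 CPM in WT. Of the list, 9 were above and 9 below KO EBs with PA/PC (7 and 10 on library totals), and 6 were above and 10 below WT EBs (5 and 12 on library totals).

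Around *Txnrd1* and *Srxn1*, 16 thioredoxin and peroxiredoxin genes split into 5 higher and 6 lower in KO versus WT EBs. *Txnip*, the inhibitor of thioredoxin, fell from 182 ± 4.19 CPM in WT EBs to 55.4 ± 1.21 CPM in KO and 34.6 ± 1.98 CPM in KO_PAPC EBs (SD, n = 3; KO versus WT log2 fold change -1.72 ± 0.0307, SE, edgeR adjusted p = 1.93e-31). Other-strand genes overlap 19.4% of the exons of *Txnip* and 11.5% of those of *Prdx2*. *Prdx2*, a substrate of sulfiredoxin, went opposite to *Srxn1*, with 287 ± 3.33, 172 ± 2.34 and 518 ± 8.47 CPM in WT, KO and KO_PAPC EBs. *Sesn3* was highest in KO, at 99 ± 2.71 CPM against 65.3 ± 1.13 in WT, and *Sesn2* lowest in KO_PAPC, at 122 ± 2.66 CPM against 222 ± 10.8 in WT. In each comparison of KO_PAPC 10 of the 16 were higher and 4 lower. On library totals these became 9 and 6 against KO, and 6 and 5 against WT.

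Of 5 genes for removal of superoxide and hydrogen peroxide, 4 passed the filter on low counts. All 4 were called higher in KO versus WT EBs, against 36.8% of all tested genes, but only *Sod2* passed the 1.5-fold test. *Sod2*, the mitochondrial superoxide dismutase, rose most, from 74.6 ± 1.92 to 141 ± 1.63 CPM (SD, n = 3; edgeR adjusted p = 4.91e-24), and was at 83.1 ± 2.25 CPM in KO_PAPC EBs. Other genes hold 20.8% of its words. *Ccs*, the copper chaperone of *Sod1*, was at 53.0 ± 2.25, 67.0 ± 2.88 and 37.5 ± 1.46 CPM in WT, KO and KO_PAPC EBs. *Sod1* and *Cat*, catalase, moved little, with log2 fold changes in KO versus WT of 0.17 ± 0.0212 (edgeR adjusted p = 6.34e-09) and 0.073 ± 0.0278 (edgeR adjusted p = 0.0184). Relative to KO, KO_PAPC EBs had 1 higher and 3 lower, and on library totals *Cat* turned too, so that all 4 were lower. Against WT 2 were higher and 2 lower, which became 0 higher and 2 lower on library totals.

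In the list of 18 ferroptosis and selenoprotein genes around *Gpx4*, 8 were higher and 6 lower in KO versus WT EBs (median log2 fold change 0.057). *Slc40a1*, the iron exporter ferroportin, was at 22.3 ± 0.379, 70.5 ± 1.94 and 6.78 ± 0.727 CPM in WT, KO and KO_PAPC EBs (SD, n = 3; KO_PAPC versus KO log2 fold change -3.38 ± 0.0585, SE, edgeR adjusted p = 2.58e-34). *Tfrc*, the transferrin receptor that takes iron in, had the opposite order, with 490 ± 15.9, 306 ± 5.81 and 762 ± 36.1 CPM. *Selenow* resembled *Tfrc*, at 128 ± 5.60, 78.2 ± 0.990 and 199 ± 10.9 CPM. *Acsl4*, which loads membranes with polyunsaturated fatty acids, rose from 103 ± 5.82 CPM in WT EBs to 131 ± 3.53 CPM in KO and 203 ± 12.5 CPM in KO_PAPC EBs. *Gch1*, the first enzyme of tetrahydrobiopterin synthesis, was 8.49 ± 0.996 CPM in WT EBs, 8.63 ± 0.315 in KO (edgeR adjusted p = 0.812) and 2.63 ± 0.335 in KO_PAPC EBs. With PA/PC, 8 of the list were above and 9 below KO EBs, and 9 were above and 6 below WT EBs (7 and 9 on library totals).

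Beside *Hmox1*, the 11 heme and iron genes had 6 higher and 3 lower in KO versus WT EBs, none beyond 1.5-fold. *Blvra*, biliverdin reductase, which acts after heme oxygenase, did not follow *Hmox1*. It was at 10.3 ± 0.412, 14.0 ± 0.393 and 6.61 ± 1.02 CPM in WT, KO and KO_PAPC EBs (SD, n = 3; KO versus WT edgeR adjusted p = 3.48e-07). *Flvcr1*, a heme exporter, was lowest in KO as *Hmox1* was, at 16.8 ± 0.280, 11 ± 0.778 and 21.9 ± 1.48 CPM, though another gene overlaps 15.6% of its exons. The iron regulatory protein genes went apart, *Ireb2* with 311 ± 8.65, 408 ± 11.8 and 299 ± 15.9 CPM and *Aco1* with 78.3 ± 1.25, 69.6 ± 1.42 and 110 ± 1.52 CPM. With PA/PC, 4 of the list were above and 7 below KO EBs (3 and 7 on library totals), and 3 were above and 6 below WT EBs (3 and 7 on library totals).

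*Slc7a11* is also a textbook target of ATF4, the transcription factor of the amino acid response, and 10 genes of that response were listed with it. In KO versus WT EBs 0 were higher and 9 lower (37.1% of all tested genes were lower), with a median log2 fold change of -0.92. Of them 6 passed the 1.5-fold test, against 10.1% of all tested genes lower by that test. The list was chosen with earlier results of these data known, so these counts are a description. *Trib3* was at 97.8 ± 0.889, 36.6 ± 1.33 and 10.4 ± 0.565 CPM in WT, KO and KO_PAPC EBs (SD, n = 3). *Atf4* itself was at 440 ± 1.51, 291 ± 0.956 and 59.9 ± 2.09 CPM, and *Asns*, asparagine synthetase, at 564 ± 2.98, 458 ± 4.91 and 104 ± 2.54 CPM. *Ddit4* stood apart, at 559 ± 21.5 CPM in WT EBs, 158 ± 6.18 CPM in KO and 1065 ± 49.2 CPM in KO_PAPC EBs (KO_PAPC versus KO log2 fold change 2.75 ± 0.0307, SE, edgeR adjusted p = 4.03e-40). Of the list, 2 were above and 8 below KO EBs with PA/PC (1 and 8 on library totals, median -0.84). Against WT EBs 1 was above and 9 were below (median -1.28), all 10 beyond 1.5-fold. Of all tested genes, 4.31% were higher and 13.4% lower beyond 1.5-fold there. *Slc7a11* shared the low values of KO against WT. From KO to KO_PAPC EBs, where *Slc7a11* was not called, *Atf4*, *Asns*, *Trib3* and *Chac1* fell again, whereas 3 other genes of the list, chosen after their values were seen, moved little. *Slc3a2*, whose product pairs with xCT in the cystine transporter, was at 590 ± 3.39, 339 ± 1.15 and 372 ± 14.1 CPM in WT, KO and KO_PAPC EBs (KO_PAPC versus KO log2 fold change 0.13 ± 0.0266, SE, edgeR adjusted p = 3.91e-05, and not called on library totals). *Psat1* was at 530 ± 7.79, 260 ± 3.99 and 246 ± 6.65 CPM, and *Ddit3* at 41.8 ± 1.11, 18.0 ± 0.526 and 15.9 ± 1.26 CPM. Whether *Slc7a11* differs from any of these genes in its change was not tested.

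**Figure D4:**
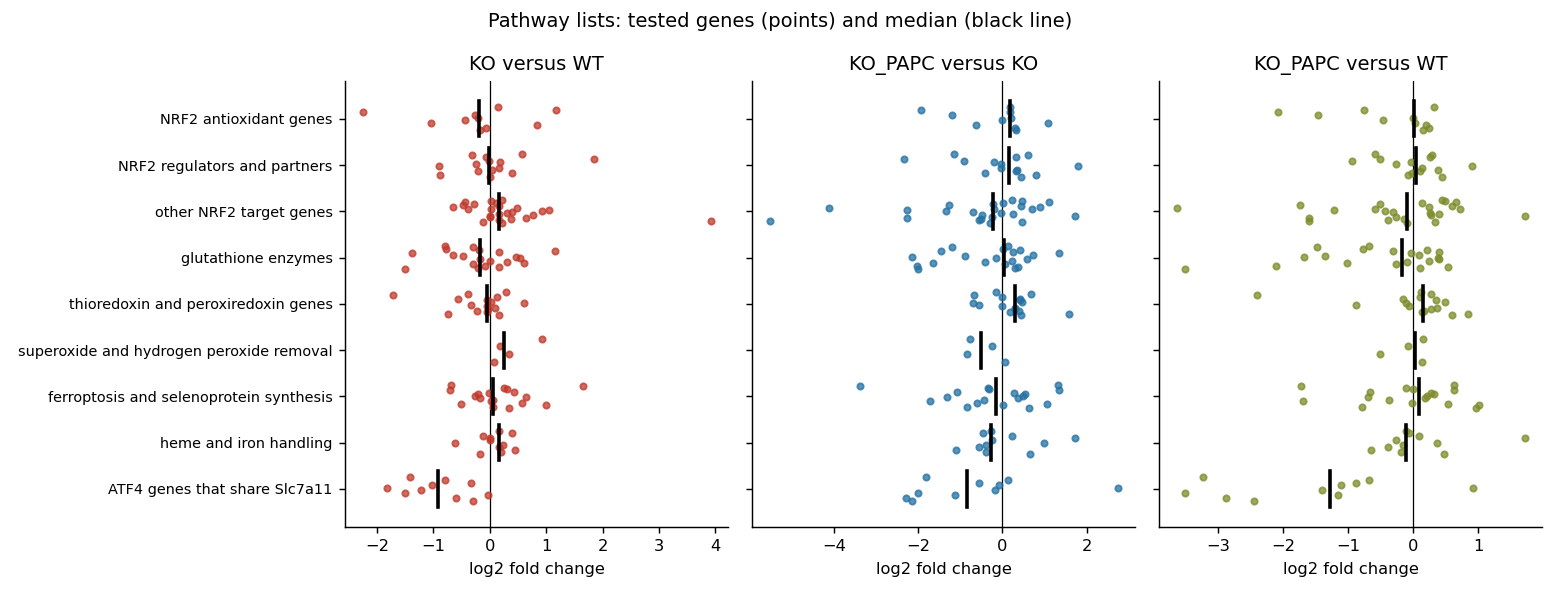
Log2 fold change of every tested gene (points) in the NRF2 antioxidant genes and 8 lists around them, with the list median as a black line; each comparison has its own axis. The median farthest from 0 in each comparison is that of the ATF4 genes, at -0.92, -0.84 and -1.28, followed in KO_PAPC versus KO by the superoxide list at -0.51.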

How the data were processed

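The authors deposited whole-number read counts per Ensembl gene for 9 libraries (unstranded TruSeq RNA v2). Per the labels, reads were mapped with STAR 2.7.2b to GRCm38 and counted with featureCounts 1.6.5. The study's methods leave out multi-mapping and multi-overlapping reads, and describe an older pipeline for an analysis of KO and WT. Values per sample left unused numbered 0 columns. Symbols came from GENCODE M21, which lacked 241 IDs, and the 51-base words of each gene's exons were searched in all other genes. Groups and replicate numbers came from the titles.

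Each comparison was fitted on its own 6 libraries with edgeR 4.0.16 in R 4.3.3 (quasi-likelihood test, TMM, filterByExpr, Benjamini-Hochberg adjustment, calls under 0.05), with glmTreat for changes beyond 1.5-fold. The scripts were tested on simulated data. SEs were derived from the F statistic. A permutation of 3 against 3 cannot go below p = 0.1, so single values were not permuted. Replicate libraries of a group differed by more than sampling noise (chi-square per degree of freedom 1.22 to 3.45). The paper describes the KO libraries with and without PA/PC as separate pools of EBs. The p-values thus rest on the spread between libraries of the same line or clone, not between clones. Alternatives were DESeq2 1.42.0, RLE factors, library totals, no filter, a joint fit, a replicate block and leaving out each library.

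The genes and lists were chosen with earlier results of these data known. Named beside the 10 genes are, per list and comparison, up to 3 called genes of largest change averaging 5 CPM or more, and the 3 genes most correlated with *Nfe2l2* among those averaging 10 CPM or more.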

Additional observations from a re-analysis of the deposited data

How the results depend on the processing

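Recomputed under the alternatives, 356 counts of called genes, adding both directions, stayed within 1.5 times the reported total and 1 did not. The exception was the superoxide list in KO_PAPC versus WT EBs, with 2 genes called on library totals in place of 4. By direction, library totals moved some counts further in the comparisons of KO_PAPC: of the 10 genes, those higher went from 5 to 3 against KO and from 4 to 2 against WT, and the regulators lower than WT from 4 to 7. Among all genes, those higher than WT went from 5693 to 3616. In the superoxide list the 1 gene above KO, *Cat*, was not called with the replicate block, in DESeq2 or without KO_PAPC replicate 3, KO replicate 1 or KO replicate 2. The 2 genes of that list below WT became 1 without the filter, in DESeq2 and without KO_PAPC replicate 3, WT replicate 2 or WT replicate 3. Library totals also turned *Hmox1* (-0.13) and *Gclc* (-0.010) in KO_PAPC versus WT EBs. The sign of *Nfe2l2* there, at a log2 fold change near 0, turned with RLE factors (0.0097), without the filter (0.014), in the joint fit (0.0075) and in DESeq2 (0.018), and ranged from -0.019 to 0.015 with 1 library left out. The sign of *Keap1* in KO_PAPC versus KO EBs turned without the filter (0.013) and ranged from -0.074 to 0.026 with 1 library left out. Neither was called in any of these. *Gclm* in KO versus WT EBs was called without the filter (-0.076, edgeR adjusted p = 0.0226), without KO replicate 3 (-0.086, edgeR adjusted p = 0.027) and without WT replicate 1 (-0.065, edgeR adjusted p = 0.0443). The cause was not tested. Deviations of libraries with the same replicate number correlated at -0.036 to 0.035, a measure in which counting noise can hide a shared effect. With the replicate block, edgeR's common coefficient of variation between libraries went from 2.65% to 1.21% in KO_PAPC versus WT EBs. It went from 2.09% to 2.59% in KO versus WT and from 2.32% to 2.85% in KO_PAPC versus KO EBs. Whether the numbers pair the libraries is not settled by these values. With the block 9, 8 and 8 of the 10 genes were called, as without it. Low counts limit *Slc7a11* most.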
